A study of Bos taurus with 45 samples.

Results

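Endometrium cultured without a conceptus (Endo) made up 13 of the 45 RNA sequencing libraries, and these 13 are described here as 1 group with no treatment contrast. They were taken as the mono-culture columns of the endometrial count table, 1 library for each of 13 uteri, each uterus called here by the number in its label. The donors were cyclic Angus-Holstein heifers, estrus synchronized and collected on Day 16, and every explant was an 8 mm punch of endometrium held in medium for 12 h. The study took these punches from the area between the caruncles of the ipsilateral horn, so caruncles are not represented. Since each uterus gave 1 Endo library, differences between animals cannot be told apart from differences between the places sampled within a uterus. The labels and the study's list of cultures tie uteri that were cultured with sections of the same conceptuses, which gives 7 culture sets: 15 with 17, 45 with 53, 19 with 54, 14 with 39, 16 with 56, 69 with 70, and 38 alone. The tie between 15 and 17 comes from the list of cultures only.

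The endometrium between the caruncles holds a luminal epithelium, glands that secrete histotroph (the fluid that feeds the conceptus before attachment), a fibroblast stroma, blood and lymphatic vessels and resident leukocytes, with smooth muscle of the myometrium beneath. Around Day 16 of the cycle the epithelium regains the oxytocin receptor and releases prostaglandin F2 alpha, unless a conceptus secretes interferon tau, which acts on the epithelium and stroma and switches on interferon-stimulated genes. Endo tissue had no conceptus in the dish, so its interferon-stimulated genes give the level after 12 h of culture without one. The level at the start of culture was not measured.

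The libraries held between 44.2 and 61.5 M counts (median 54.9 M), and between 18917 and 19548 genes had at least 1 count. Of the counts from 1 to 20, between 65.6% and 69.8% were even, so both reads of a pair appear to have been counted. Mitochondrial genes took 1.19% to 3.40% of counts. A gene was kept when it had at least 0.182 CPM (counts per 1 M counts of the library) in each of the 13 libraries, which left 14447 genes. Uterus 15 stood apart: 788 genes lay more than 2 log2 units from their median over the 13 uteri, against 337 for uterus 16, 297 for 17, 271 for 53 and 26 to 135 for the other uteri. Its median correlation with the other libraries was 0.893, where the group reached 0.967. The paper reports that RNA integrity varied over its endometrial samples, and how this relates to the differences between libraries was not tested.

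The tissue label was checked against markers. The stromal genes DCN, COL1A2 and COL3A1, the epithelial genes EPCAM and CDH1 and the endothelial gene PECAM1 were present in all 13 libraries. Of 20 trophoblast symbols, 3 were not in the table and 2 rows passed the filter. IFNT3, an interferon tau gene, reached at most 0.111 CPM and was at 0 in 3 libraries, and PAG12, the prolactin-related gene PRP1 and the placental lactogen gene CSH2 were at 0 in 13 of 13. The rows that passed were SSLP1, which ranged from 1.34 CPM in uterus 53 to 32.1 CPM in uterus 17 with a median of 5.61 CPM, and 1 of the 2 gene IDs that carry the symbol PAG1 (at most 6.04 CPM), a symbol that is also used for a membrane adaptor protein, while the other PAG1 row was at 0 in all 13 libraries.

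Chaperones of the heat shock family took 5 of the first 7 places among the most abundant genes. By mean CPM, which counts reads and does not correct for gene length, the order began with HSPA1A, the inducible HSP70, then SLC2A3, a glucose transporter, HSPA5, the HSP70 of the endoplasmic reticulum, the translation factor EEF1A1, HSP90AA1, HSP90B1 and HSPA8. By mean log2 CPM, SLC2A3 (13.39) came first and HSPA1A (13.08) the fourth, and the order of medians gave the same places to both. HSPA1A ranged from 2479.7 CPM in uterus 70 to 32189 CPM in uterus 53, with a median of 6457 CPM. Its level was spread over more than a factor of 10, and 5 uteri (15, 17, 45, 53 and 16) lay at 18510 CPM or more while the other 8 lay at 9758 CPM or less. HSPA8, the constitutive HSP70, ranged from 1300.4 CPM (uterus 54) to 14063 CPM (uterus 53), with a median of 3265 CPM. Reads of HSPA1A may be shared with near-identical copies, so its value is uncertain to that extent.

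Genes of glycolysis and of the response to low oxygen were the other abundant class. SLC2A3 ranged from 6068 CPM in uterus 17 to 18389 CPM in uterus 54, with a median of 10911 CPM. NDRG1 and DDIT4, both induced under low oxygen, had medians of 3041 CPM and 2504 CPM, and GAPDH, the glycolytic dehydrogenase, had 4583 CPM. The mean of the 23 hypoxia targets varied little between uteri: it lay between 8.08 (uterus 53) and 8.90 (uterus 45) log2 CPM, an SD of 0.25. Single members varied as much as the median gene, with a median SD of 0.44, and 11 of the 23 lay above that gene. NDRG1 (0.53) and DDIT4 (0.76) were among those 11.

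Stromal, translation, cytoskeletal and mitochondrial genes were also among the 20 most abundant, as was ZFP36L1, an RNA-binding protein of mRNA decay (1333 to 4244 CPM). COX1, a mitochondrial subunit of cytochrome oxidase, ranged from 2884 CPM in uterus 19 to 8346 CPM in uterus 17. DCN, the collagen-binding proteoglycan decorin, was the tenth with 2075 CPM in uterus 17, a median of 3971 CPM and 6015 CPM in uterus 15. IGFBP3, a binding protein of insulin-like growth factors, was low in 3 uteri, at 726 CPM in 15, 855 CPM in 16 and 1096 CPM in 53, against 2437 to 4920 CPM in the other 10. EEF1A1 (6944 to 10747 CPM) and EEF2 (2909 to 3806 CPM), factors of translation elongation, kept within narrow ranges. The plot of the 20 most abundant genes shows both the wide chaperones and the narrow translation factors.

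**Figure D1:**
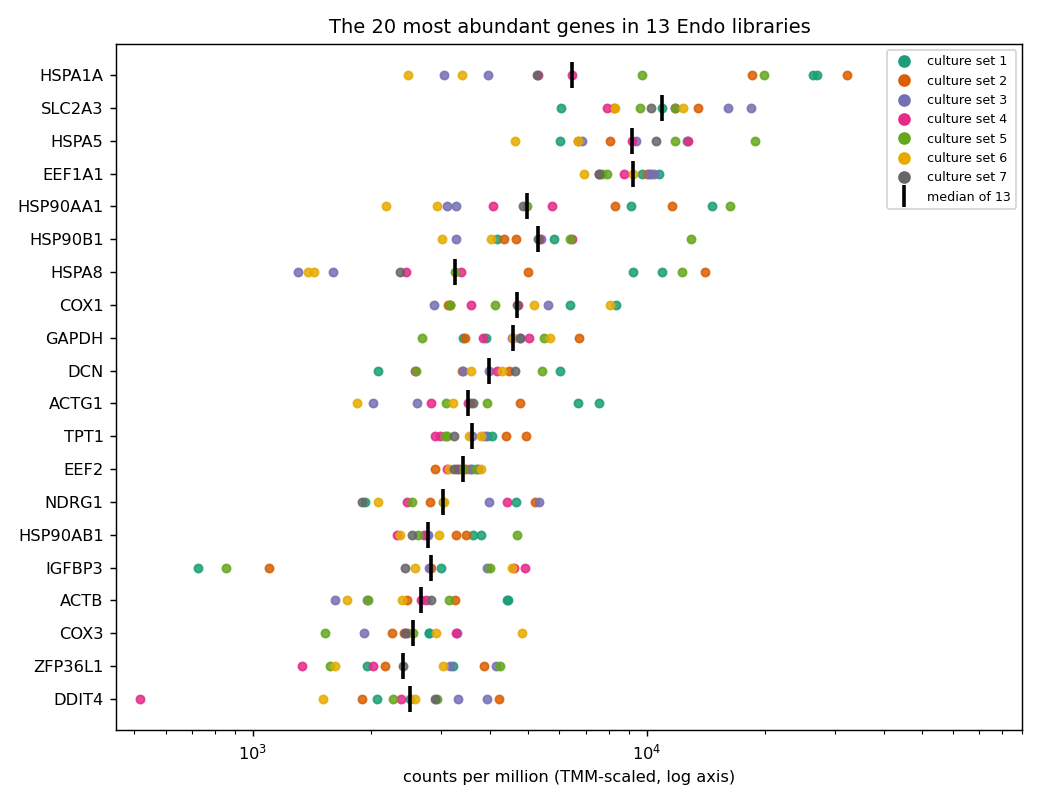
The 20 genes with the highest mean CPM, in order, with 1 point for each of the 13 uteri on a logarithmic axis, coloured by culture set, and a bar at the median. HSPA1A spans 2479.7 to 32189 CPM and HSPA8 1300.4 to 14063 CPM, while EEF2 stays between 2909 and 3806 CPM.

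All 18 stromal markers passed the filter, and 16 of them had a larger SD across uteri than the median gene (0.44 log2 units over the 14447 genes). COL3A1, a fibrillar collagen, ranged from 498 CPM in uterus 39 to 7602 CPM in uterus 16, with a median of 1537 CPM. COL1A2, a chain of type I collagen, ranged from 383 CPM in uterus 39 to 3414 CPM in uterus 16, with a median of 854 CPM. Uteri 15 and 16 were the highest for both, at 6598 and 7602 CPM of COL3A1. The SD of log2 CPM was 1.24 for COL3A1 and 1.02 for COL1A2, against 0.44 for DCN, so the markers of stroma did not move by the same amount. COL1A1, COL6A1, COL6A2, FBLN1 and LUM, all matrix genes, had SDs between 0.98 and 1.19. Some stromal genes ran otherwise: POSTN (periostin) correlated negatively with the mean of the other stromal markers (r = -0.52) and was lowest in uterus 16, and PDGFRA, the receptor of platelet-derived growth factor that marks fibroblasts, showed almost no relation (r = 0.07) and was highest in uterus 69 at 842 CPM. In bulk tissue, fewer cells of a type and less RNA per cell cannot be told apart.

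Genes whose log2 CPM followed the mean of the stromal list most closely were COL16A1, a collagen (r = 0.97), the Wnt inhibitor SFRP1 (r = 0.95) and the Wnt receptor FZD1 (r = 0.95). CHRNA3 (r = 0.95) and NYAP1 (r = 0.945) came next. SFRP1 ranged from 57.3 to 474 CPM. These values of r are a description over the same 13 libraries.

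Epithelial and glandular markers moved together across uteri and were lowest in uterus 16. Of 20 markers, 19 passed, and all 19 varied more than the median gene. KRT8, a simple epithelial keratin, was 69.6 CPM in uterus 16, 309 CPM at the median and 534 CPM in uterus 17. EPCAM, an epithelial adhesion molecule, was 51.6 CPM in uterus 16, 253 CPM at the median and 435 CPM in uterus 17. Uterus 69 was the next lowest for both, with 111 CPM of KRT8 and 93.4 CPM of EPCAM. Across pairs of these 19 genes the median r was 0.76, and 83.6% of pairs had r above 0.5, against a median of -0.00 and 11.2% over all pairs of the genes tested. PKP3, a desmosomal protein, and ERBB3, an epithelial growth factor receptor, were outside the list but followed it at r = 0.97 and 0.95.

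FOXA2, the transcription factor that marks glands, did not follow the other epithelial genes (r = 0.38 with the rest of the list). It was lowest in uterus 15 at 0.81 CPM, where CDH1, the adhesion protein of epithelial junctions, was highest of all uteri at 409 CPM. The FOXA2 median was 7.25 CPM and the highest value 26.8 CPM, in uterus 17. The mean log2 CPM of the whole epithelial list was 6.47 in uterus 15, against a median of 6.32 over the 13 uteri.

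Motile cilia genes set uterus 15 apart further. The mean log2 CPM of 22 cilia genes was 0.81 in uterus 15 and between 3.67 and 5.36 in the other 12. FOXJ1, the master factor of motile ciliogenesis, was 3.06 CPM in uterus 15, 49.8 CPM at the median and 106 CPM in uterus 70. DNAH9, a dynein heavy chain of the outer arms, was 2.67 CPM in uterus 15, 67.6 CPM at the median and 119 CPM in uterus 54. The cilia list was the most coherent of all, with a median r of 0.94 between its genes. TPPP3, a tubulin-binding protein, was the exception, with r = -0.42 against the others and its highest value, 207 CPM, in uterus 15.

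The mean of the smooth muscle list was lowest in uteri 17 (3.59) and 56 (3.78) and highest in 15 (5.71) and 16 (5.65). Single markers had other extremes: DES was highest in uterus 14 (274 CPM), and SMTN did not follow the rest of the list (r = -0.05). Of 16 markers, 15 passed, and all 15 varied more than the median gene. ACTA2, smooth muscle actin, ranged from 10.1 CPM in uterus 56 to 408 CPM in uterus 15, with a median of 44.2 CPM. CNN1, the actin-binding calponin, ranged from 121 CPM in uterus 17 to 949 CPM in uterus 45, with a median of 548 CPM. MYH11, the smooth muscle myosin heavy chain, ranged from 12.0 CPM (uterus 17) to 158 CPM (uterus 54). TPM2, a tropomyosin outside the list, followed it most closely (r = 0.96). Pericyte markers were less coherent (median r = 0.28 over 8 genes), and RGS5, a pericyte regulator of G protein signalling, ranged from 26.2 CPM in uterus 70 to 450 CPM in uterus 15.

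Leukocyte transcripts were highest in uterus 69 and lowest in uterus 53, with mean log2 CPM of the 26 rows that passed of 3.62 and 1.14 and a median of 2.22. All 26 varied more than the median gene. PTPRC, the pan-leukocyte protein CD45, was 1.67 CPM in uterus 53, 11.5 CPM at the median and 30.7 CPM in uterus 69. MRC1, the mannose receptor of macrophages, was 0.47 CPM in uterus 53, 3.23 CPM at the median and 25.8 CPM in uterus 69. Some genes of T cells and cytotoxic cells had the same extremes: CD3E, a chain of the T cell receptor complex, ranged from 0.93 to 7.55 CPM and NKG7, a granule protein, from 0.42 to 9.33 CPM, between the same uteri. Others did not, since CD2, a T cell adhesion molecule, was lowest in uterus 17 and highest in 70, and CD4, the T helper co-receptor, was lowest in 17 (2.35 CPM) and highest in 15 (14.8 CPM). Another 10 rows of the list stayed below the filter, among them the neutrophil genes S100A8 and S100A9 and the B cell gene MS4A1. S100A9 had a median of 0.221 CPM and 19.6 CPM in uterus 69, and MS4A1 was 7.90 CPM in uterus 69 and at most 2.09 CPM elsewhere. BOLA-DRA, an MHC class II chain, followed the leukocyte list (r = 0.96) and ranged from 41.0 to 313 CPM. GZMB has 2 gene IDs in the table, and the row that passed was highest in uterus 15 (34.7 CPM), unlike NKG7 and PRF1, which were highest in uterus 69.

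Endothelial markers varied less than those of the other cell types, with a median SD of 0.60 over the 16 genes. FLT1, a receptor of vascular endothelial growth factor, ranged from 287 CPM in uterus 15 to 2180 CPM in uterus 39, with a median of 871 CPM. PECAM1 was 54.6 CPM in uterus 15, 193 CPM at the median and 373 CPM in uterus 39. Uterus 39 was the highest in 10 of the 16 genes, and uterus 15 the lowest in 8. Some members ran otherwise: SOX18 was highest in uterus 15 (194.6 CPM), and KDR was 256.7 CPM there against 293.6 CPM in uterus 39. Both followed the rest of the list weakly (r = 0.215 and 0.251). EMCN and ERG, also endothelial, had SDs of 0.29 and 0.30, below the median gene. Outside the list, TAOK2 (r = 0.944), SNRNP200 (0.943), CPSF7 (0.937), SH2D3C (0.935) and HEATR3 (0.935) followed its mean most closely. The list mean thus also tracked genes that were not picked as endothelial markers, and the cause was not tested. LYVE1 and PROX1 of lymphatic endothelium were detected in each library, the latter at 0.34 to 1.88 CPM, and CCL21, the lymphatic chemokine, was at 0 in 8 libraries.

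Basal interferon-stimulated transcripts were present in every uterus and highest in uterus 14. Of 53 symbols, 6 were not in the table, 2 stayed below the filter and 45 passed, with mean log2 CPM from 3.42 in uterus 53 to 4.82 in uterus 14 and a median of 3.87. ISG15, the ubiquitin-like modifier, was 9.44 CPM in uterus 53, 18.6 CPM at the median and 66.0 CPM in uterus 14. MX1, an antiviral GTPase, was 19.8 CPM in uterus 53, 60.2 CPM at the median and 223 CPM in uterus 14. MX1 in uterus 14 lay above the next highest uterus, 69, which had 94.0 CPM. RSAD2 (viperin) was 87.2 CPM and OAS1Y, an oligoadenylate synthetase, 79.7 CPM in uterus 14, against medians of 18.8 and 19.8 CPM. The OAS1X, OAS1Y and OAS1Z genes are close copies, and how their reads were divided is uncertain.

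Members of the interferon list differed in how much they varied. Its median SD was 0.50 log2 units, close to the 0.44 of all genes, and 30 of the 45 lay above that median. GBP4, a guanylate-binding protein, had the largest SD (1.55), with 138 CPM in uterus 17, then MX2 (1.14) and OAS1X (1.03). Signalling components stayed in narrow bands, with STAT2 between 29.2 and 56.6 CPM and IRF9, its partner in interferon signalling, between 26.5 and 53.2 CPM. PARP9 had the smallest SD, 0.22. The median r within the list was 0.34, and OAS1Y (r = 0.95), RSAD2 (0.93) and OAS1Z (0.89) followed the rest of the list most closely. IFI35 (-0.35), UBE2L6 (-0.23), DHX58 (-0.20), IFI6 (-0.10), GBP4 (-0.07) and PSMB9 (-0.03) did not follow it. IFI6 was highest in uterus 45 (97.2 CPM), not in uterus 14. Outside the list, EFR3A (r = 0.793), CPD (0.751), SLK (0.745), ZC3HAV1L (0.743) and EIF4G3 (0.736) followed its mean most closely.

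**Figure D2:**
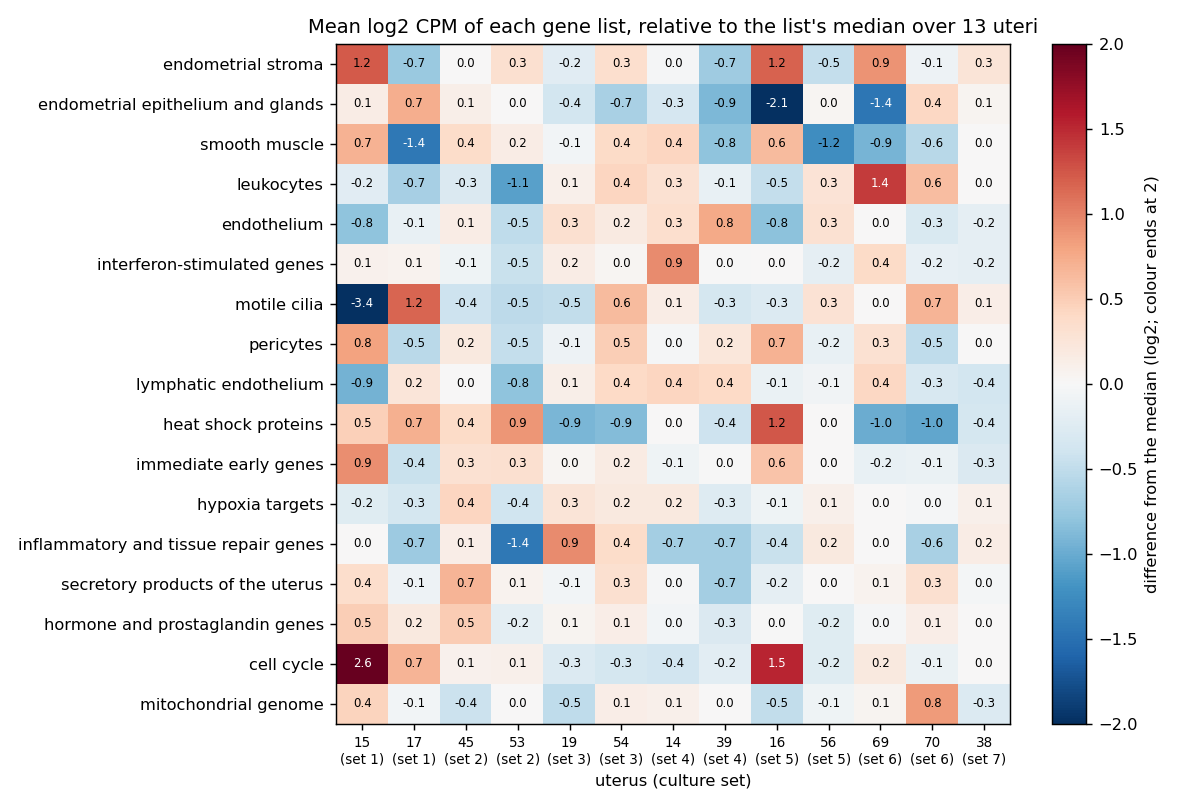
Mean log2 CPM of the members of 17 gene lists (rows) in each of the 13 uteri (columns, grouped by culture set), as the difference from the list's median over uteri, where colours end at 2 log2 units. Uterus 15 has cilia genes at 0.81 against a median of 4.19, uterus 16 has the lowest epithelial level (4.26), uterus 69 the highest leukocyte level (3.62) and uterus 14 the highest interferon-stimulated level (4.82).

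Levels of the 6 main lists were compared pairwise across uteri to ask which tissue components varied together. Stroma was positively related to smooth muscle (r = 0.63, rho = 0.71) and negatively to endothelium (r = -0.72, rho = -0.61). By a two-sided permutation test with 100000 resamples, p was 0.022 for the first pair and 0.0056 for the second, and after Benjamini-Hochberg adjustment over the 15 pairs 0.163 and 0.084, so neither passed 0.05. None of the 15 pairs passed, and 2 had an unadjusted p under 0.05. Stroma and epithelium had r = -0.50 (permutation p = 0.080, adjusted 0.398), and leukocytes and interferon-stimulated genes r = 0.46 (permutation p = 0.117, adjusted 0.44). CPM are shares of a library, so the level of one list is not free of the level of the others.

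Both relations of stroma were smaller without the uteri that stood apart. Without uteri 15 and 16, the farthest from the stromal median, r fell to 0.44 for stroma and smooth muscle and moved to -0.42 for stroma and endothelium, and 0 of the 15 pairs kept an unadjusted p under 0.05. Leaving out uterus 69 instead gave r = 0.83 for stroma and smooth muscle, and 2 pairs then passed the adjustment, with adjusted p = 0.015 for that pair and 0.0193 for stroma and endothelium by the permutation test. Without uterus 17, r of stroma and endothelium was -0.82 (adjusted permutation p = 0.0177), the only pair to pass in that case. The relation of leukocytes to interferon-stimulated genes was r = 0.12 without uteri 69 and 53, and r = 0.59 without uterus 14.

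Within culture sets, with the set means removed, r was 0.86 for stroma and smooth muscle, -0.76 for stroma and endothelium, -0.74 for stroma and epithelium and -0.83 for smooth muscle and endothelium. The 6 sets of 2 uteri moved alike for stroma and smooth muscle in 4 of 6. In an exact test that swaps the uteri within each set in all 64 combinations, whose smallest p is 0.0312, these pairs had p = 0.188, 0.188, 0.156 and 0.125, and none passed 0.05. The set of uteri 15 and 17 differed by 1.96 log2 units in stroma and 2.12 in smooth muscle, the largest within-set differences of both lists.

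**Figure D3:**
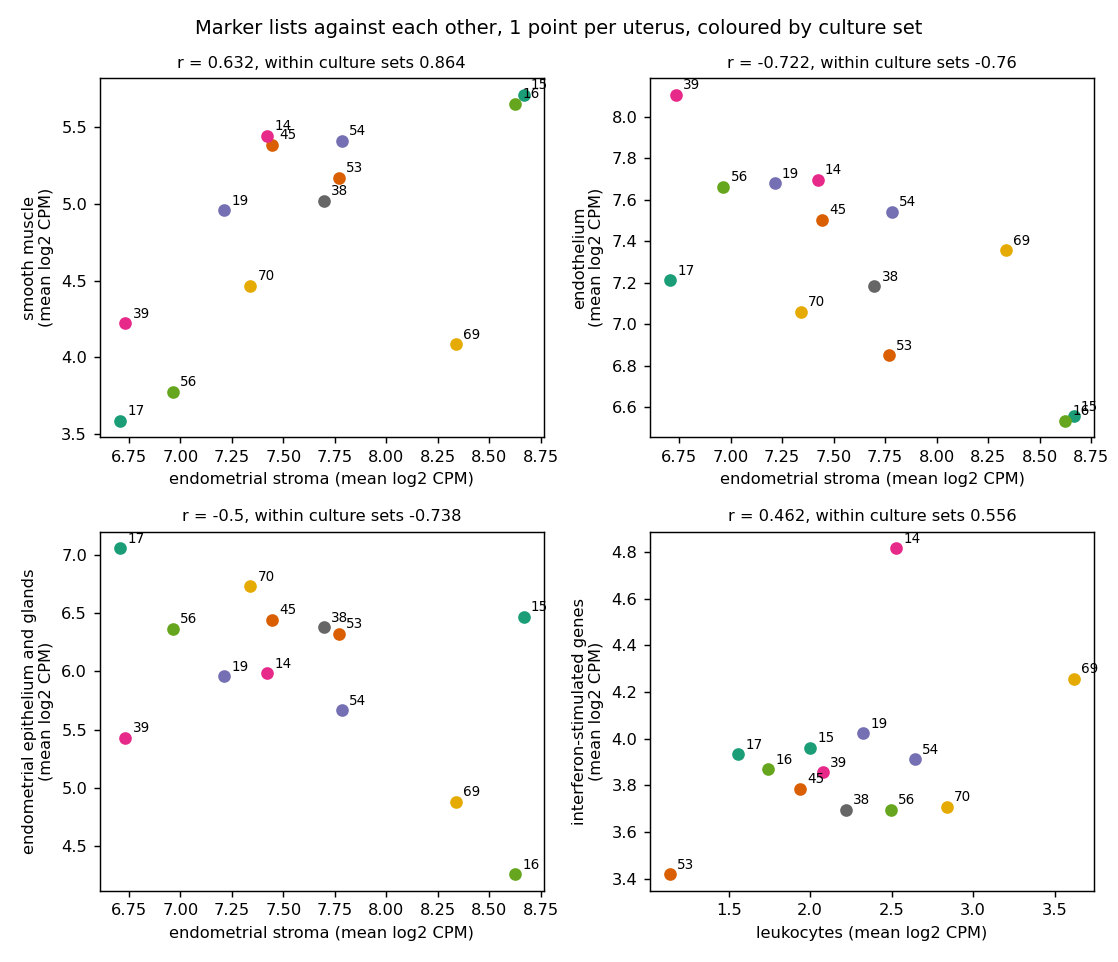
Mean log2 CPM of pairs of marker lists, 1 labelled point per uterus, coloured by culture set, with the pooled and the within-set Pearson r above each panel. Uteri 15 and 16 lie at the high end of stroma (8.67 and 8.62) in 3 panels, and in the fourth panel uterus 14 lies above the others in interferon-stimulated genes (4.82).

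The most variable genes differed in their order of uteri. Among genes with a symbol and a mean log2 CPM of at least 1, the 20 with the largest SD were taken, and the last one in was VNN2 (SD 2.18) and the first one out PLA2G10 (SD 2.18). These genes were chosen by their SD, so their spread is a description with no test. TDGF1 (Cripto, a co-receptor of Nodal) had the largest SD, 3.38 log2 units, and ranged from 0.40 CPM in uterus 69 to 600.1 CPM in uterus 17, with a median of 6.71 CPM. It was 375 CPM in uterus 15, 421 CPM in 53 and 94.3 CPM in 16, and at most 40.9 CPM in the other 9 uteri.

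A first group of 11 of these genes correlated with each other at a median r of 0.76. Of these, 8 were highest in uterus 17, as TDGF1 was, and the other 3, M-SAA3.2, SAA3 and TFF3, in uterus 45. ANPEP, the membrane aminopeptidase N, was 467 CPM in uterus 17, 305 CPM in 15, 48.0 CPM in 16 and 42.8 CPM in 53. The other 9 uteri lay between 3.58 and 7.49 CPM. This split was read off after the values were seen and is given without a test. SPDEF, a factor of secretory epithelial differentiation, was 132 CPM in uterus 17 and 78.9 CPM in 53 with a median of 2.69 CPM. CCNB1, cyclin B1, ranged from 1.31 CPM (uterus 69) to 194 CPM (uterus 17), and was highest in 17 and 53 (90.1 CPM), while MKI67 and TOP2A, other cell cycle genes, were highest in uterus 15. SUSD2, a membrane protein, reached 504 CPM in uterus 17 against a median of 12.3 CPM, and SLC13A5, a citrate transporter, 151 CPM against 4.82 CPM.

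The acute phase genes SAA3 and M-SAA3.2, which encode serum amyloid A proteins made in epithelia, belonged to the same group but had their own order of uteri. M-SAA3.2 was 0.20 CPM in uterus 54, 31.5 CPM at the median and 393 CPM in uterus 45. SAA3 was 0.62 CPM in uterus 69, 11.0 CPM at the median and 187 CPM in uterus 45. They are close copies, which may share reads, and their r of 0.95 is uncertain for that reason. TFF3, a trefoil peptide of mucous epithelia, was also highest in uterus 45 (40.1 CPM) and lowest in 69 (0.22 CPM).

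A second group held UPK1B, HBA, IGFBP1, MUC13, CYP26A1 and VNN2, with a median r of 0.63. UPK1B, a uroplakin of the apical membrane, was 425 CPM in uterus 15 and 102 CPM in 45, with a median of 3.51 CPM and 0.33 CPM in uterus 39. MUC13, a transmembrane mucin, was highest in uterus 70 (64.1 CPM) and lowest in 16 (0.47 CPM), and CYP26A1, which degrades retinoic acid, highest in uterus 54 (45.3 CPM) and lowest in 17 (0.32 CPM). IGFBP1, a product of the luminal epithelium in ruminants that progesterone induces, was between 18.9 and 33.9 CPM in uteri 45, 70, 14, 54 and 56, and at most 6.35 CPM in the other 8.

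HBA, the alpha globin gene, ranged from 1.16 CPM in uterus 39 to 388 CPM in uterus 45, with a median of 55.1 CPM. Other erythroid genes did not have these levels: HBB, beta globin, was at most 3.28 CPM, in uterus 19, where HBA was 1.46 CPM. ALAS2, of erythroid heme synthesis, and the red cell anion exchanger SLC4A1 were at 0 in 7 and 8 libraries and at most 0.221 and 0.0979 CPM.

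PRSS16, ASPG and GRP formed the third group (median r 0.78). GRP, gastrin-releasing peptide, is made by uterine glands, and it was 22.7 CPM in uterus 15 and 48.1 CPM in 16, 435 CPM at the median and 4316 CPM in uterus 45. ASPG, an asparaginase, was 0.24 CPM in uterus 15 and 86.9 CPM in uterus 45. Uterus 15 was thus lowest for GRP and ASPG as it was for FOXA2.

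**Figure D4:**
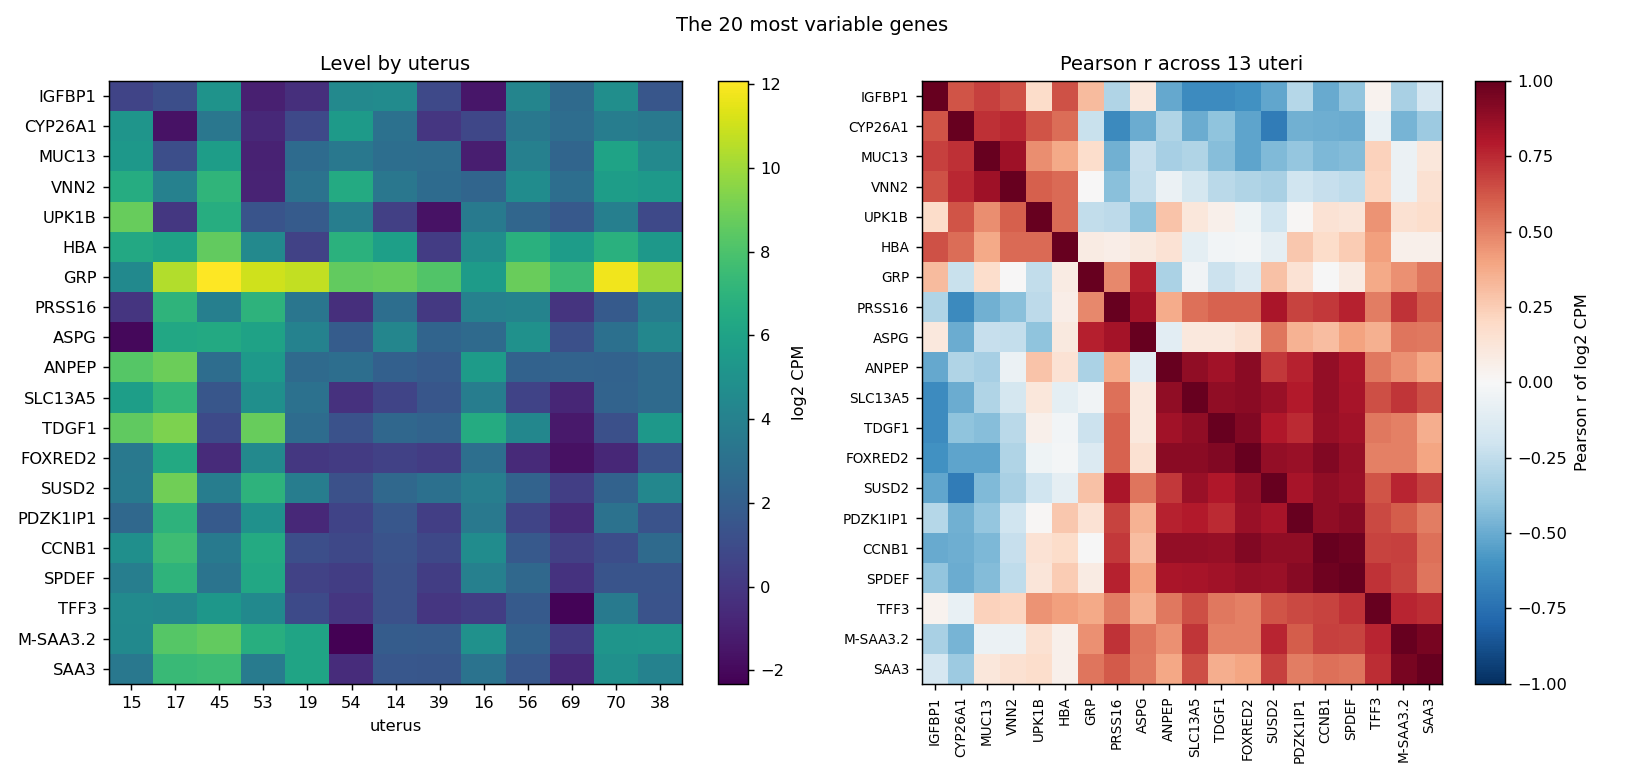
Left, log2 CPM of the 20 most variable genes (rows, in clustered order) in the 13 uteri (columns, in the order of the culture sets). Right, Pearson r between the same genes across uteri; the genes of the block from ANPEP to SPDEF are each highest in uterus 17, and SAA3 and M-SAA3.2 form a pair with r of 0.95.

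Genes below 0.182 CPM in 1 uterus or more could not enter that list, because the filter asked for every library. With no filter, 9 of the 20 most variable genes changed, and the first was SERPINA14, the uterine serpin (uterine milk protein) that glands secrete under progesterone. SERPINA14 was 0.0811 CPM in uterus 16 and 0.857 CPM in uterus 15, 18.8 CPM at the median, 520.5 CPM in uterus 70 and 1648 CPM in uterus 19. HSD17B13, a lipid droplet dehydrogenase, was at 0 in 1 library, with a median of 59.9 CPM and 213 CPM in uterus 70. The other genes added were ACKR4, HP (haptoglobin), PRSS22, UPK3BL1, BOLA-DQA5, KRT83 and EBD. In all, 316 genes below the filter had a mean of at least 1 CPM, and 8 at least 10 CPM.

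The least variable genes with a mean log2 CPM of at least 5 were UBE2D2, a ubiquitin-conjugating enzyme (SD 0.075, 98.5 to 117 CPM), FAF1 (47.3 to 57.6 CPM), WBP4, SEPTIN2, RNF10, EGLN2, YWHAE, AP2A2, DYNC1I2 and GDI2. GAPDH (2681 to 6747 CPM) and ACTB (1621 to 4438 CPM), often used as reference genes, each ranged over more than a factor of 2. Their SDs were 0.36 and 0.46, beside 0.44 for the median gene.

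Principal components of the 1000 most variable genes summarised the same axes. The first held 34.3% of their variance and separated uteri 15 (score 65.0), 16 (31.1) and 53 (19.5) from the others, which lay between -22.2 and 5.73. At its positive end stood TDGF1, UPK1B, the ephrin receptor EPHA7, the deiminase PADI1, ANPEP, the growth factor NRG2 and the matrix genes TNMD and FNDC1. TNMD was 208 CPM in uterus 15 and 59.7 CPM in 16, with a median of 6.29 CPM. At the negative end stood GALNT6, which starts mucin-type glycans, the chloride channel CFTR, the chemokine CCL22 and the ciliary genes CFAP65 and RIBC2. All 17 cilia genes among the 1000 had negative weights and all 9 cell cycle genes positive ones.

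The second component (21.4%) ran from uteri 17 (44.7) and 53 (33.8) to 69 (-30.8) and 54 (-19.3). Of its 10 largest positive weights, 8 belonged to the TDGF1 group, and its negative end held NPR3, a natriuretic peptide clearance receptor that reached 540 CPM in uterus 69, CYP26A1 and PTGS2. The third (12.6%) set uterus 45 (28.9) against 16 (-29.1) and led with PADI1, MUC13, VNN1, CDH17 and OXTR. PADI1 was 197 CPM in uterus 45 and 172 CPM in 15, and at most 2.42 CPM in the other 11 uteri, with a median of 0.58 CPM.

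Uterine hormone and prostaglandin genes varied by different amounts, among receptors as among enzymes. PGR, the progesterone receptor, ranged from 24.4 to 84.5 CPM and ESR1, estrogen receptor alpha, from 49.3 to 185 CPM, with SDs of 0.52 each, while OXTR, the oxytocin receptor, had an SD of 1.76, the largest of the list. OXTR was 6.30 CPM in uterus 53, 22.2 CPM at the median, 275 CPM in 15 and 332 CPM in 45. PTGS2, the inducible cyclooxygenase, was 14.4 CPM in uterus 53, 226 CPM at the median, 559 CPM in 15 and 741 CPM in 45. The same uteri, 15 and 45, were thus the highest for OXTR and PTGS2. HPGD, which inactivates prostaglandins, had other extremes, with 638 CPM in uterus 17 and a median of 38.1 CPM, and AKR1B1, a prostaglandin F synthase, was 462 CPM in uterus 17 against a median of 60.9 CPM.

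Genes of injury and inflammation varied more than most. All 26 of the inflammatory and tissue repair genes that passed had an SD above that of the median gene, and the list was highest in uterus 19 and lowest in 53. IL6 was 17.1 CPM in uterus 53, 37.7 CPM at the median and 287 CPM in uterus 19, and CXCL8, the neutrophil chemokine, was 14.9, 56.4 and 250.0 CPM in the same order. CSF3, the granulocyte growth factor, was below the filter with 26.1 CPM in uterus 19 and 0.0445 CPM in uterus 69. Immediate early genes were highest in uterus 15, where FOS was 2430 CPM against a median of 463 CPM.

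Cell cycle genes were low in most uteri and high in 15 and 16. The list mean was 3.98 in uterus 15 and 2.95 in uterus 16, with a median of 1.42. MKI67, the proliferation antigen, was 32.1 CPM in uterus 15 and 8.59 CPM in 16, and at most 2.63 CPM in the other 11, with a median of 0.73 CPM. PCNA (33.2 to 73.8 CPM) did not follow them (r = -0.27 with the rest of the list).

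The labels mark uteri 45 and 53 as P2 and the other 11 as P1, without saying what this means, and the P2 uteri are those of 1 culture set, so the mark and that set cannot be told apart. Genes were tested for a difference between the 7 sets. By edgeR's quasi-likelihood test, 0 of 14447 genes (0%) passed a Benjamini-Hochberg adjusted p of 0.05, and 1213 (8.4%) had an unadjusted p under 0.05. The limma-voom test also called 0 (0%), with 952 at an unadjusted p under 0.05, while the DESeq2 likelihood ratio test called 875 (6.06%), with 2501 at an unadjusted p under 0.05. With 6 residual degrees of freedom the 3 tools do not give 1 answer on how many genes differ. The smallest p belonged to BAG3, the HSP70 co-chaperone (unadjusted p = 2.38e-05, adjusted 0.284 in edgeR), and HSPA1A (unadjusted p = 6.58e-05, adjusted 0.284).

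Heat shock genes stood at the front of that order. Of the 21 in the list, 12 had an unadjusted p under 0.05 in edgeR, beside 8.4% of all genes, none passed the adjustment, and DESeq2 called 11 (6.06% of all genes). BAG3 was between 1271 and 2475 CPM in the 6 uteri of the sets 15 with 17, 45 with 53 and 16 with 56, between 646 and 797 CPM in 14, 39 and 38, and between 182 and 260 CPM in 19, 54, 69 and 70, without overlap between these levels. HSPA1A kept this order, at 9758 to 32189, 5270 to 6457 and 2479.7 to 3957 CPM. Other members of the list did not, since uterus 56 lay below uterus 14 for HSPA8 (3265 against 3374 CPM) and HSPH1 (1458 against 1832 CPM). The same held for HSP90AA1 (4958 against 5762 CPM) and DNAJA1 (255.6 against 282.4 CPM). HSPB8, a small heat shock protein, ranged from 40.2 CPM in uterus 69 to 1268 CPM in uterus 16. The levels were read off after the values were seen and are given without a test. For the whole list the set means ranged over 1.65 log2 units while uteri of a set differed by 0.32 at the median, and uteri 16 and 56 differed most, by 1.24. HSPA5 of the endoplasmic reticulum did not share this order (p = 0.101). SNORD14, of which 3 copies lie within the first 6 genes of the test, is a small nucleolar RNA encoded in introns of HSPA8 in mammals, and its reads and those of its host may not be separable.

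Other groups with many low p were leukocytes, with 11 of 26 at an unadjusted p under 0.05, and cell cycle genes, with 7 of 20, beside 8.4% of all genes and with none past the edgeR adjustment. DESeq2 called 11 of the 26 and 7 of the 20, beside 6.06% of all genes. For leukocytes the set of 69 with 70 had the highest mean (3.23) and that of 45 with 53 the lowest (1.54). Of the interferon-stimulated genes, 6 of 45 had an unadjusted p under 0.05 in edgeR, and DESeq2 called 6. Cilia, endothelial and hypoxia genes gave 0 each at an unadjusted p under 0.05, by edgeR. JAK3, a kinase of cytokine receptors, was 172 CPM in uterus 17 and 99.7 CPM in 15 with a median of 31.7 CPM (edgeR, unadjusted p = 0.000135, adjusted 0.284). What the sets share cannot be told apart from differences between the animals, since the labels tie the uteri only through the cultures. Without uteri 15 and 17, whose tie the labels do not give, edgeR also called 0 genes, with 839 at an unadjusted p under 0.05.

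**Figure D5:**
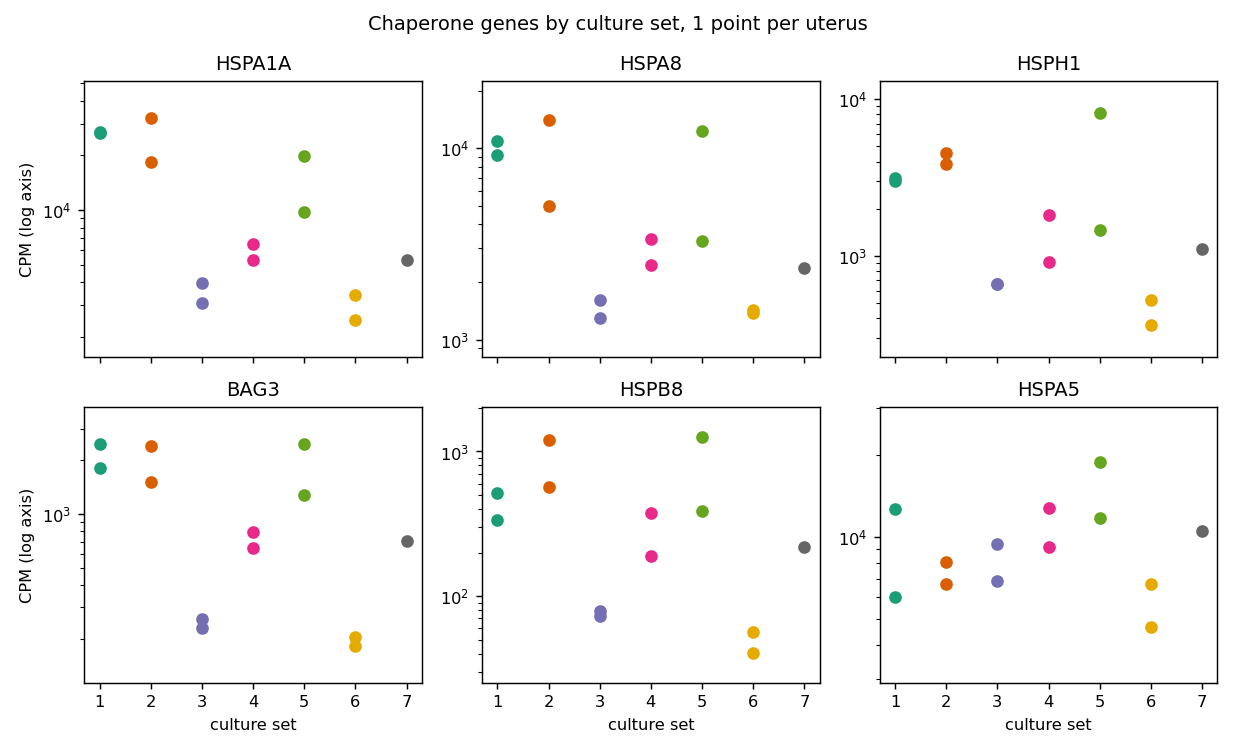
CPM of 6 chaperone genes on logarithmic axes, 1 point per uterus, by culture set from 1 to 7 (15 with 17, 45 with 53, 19 with 54, 14 with 39, 16 with 56, 69 with 70, and 38). HSPA1A and BAG3 are highest in sets 1, 2 and 5 and lowest in sets 3 and 6, while HSPA5 has another order.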

How the data were processed

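The authors trimmed reads with Trimmomatic, used STAR to align the endometrial libraries to the ARS-UCD1.2 genome, and obtained counts per gene from featureCounts. Their tool versions and strandedness were not given in the sources used here. Raw counts per gene fill the deposited endometrial table of 27270 genes, of which 6635 have no symbol. Its 1 row with no gene name was left out. Counts of the 13 Endo libraries were handled in edgeR 4.0.16 under R 4.3.3. The alternatives used DESeq2 1.42.0 and the voom method of limma 3.58.1. The edgeR filter (10 counts at the median library size, 15 in total) was followed by TMM scaling, CPM, and log2 CPM with a prior count of 2. SD is of log2 CPM, abundance is ranked by mean CPM, and r is Pearson's.

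Named genes were the 20 most abundant, the 20 most variable, the 10 least variable, the largest weights of 3 principal components, the leading members of 19 gene lists, the genes most like 6 lists and those with the smallest p between sets; members of a list outside this rule were named after their values were seen. Members and lists were chosen with earlier results of these data known. A list's level is the mean log2 CPM of its members. Culture sets were tested with edgeR's quasi-likelihood F-test (adjusted p at most 0.05), which was tested on simulated data, and list pairs by permutation. Each group library comes from its own uterus, and nothing repeats an explant, so p-values cover differences between uteri and explants together. Alternatives were other scaling, filters, prior counts, tools and libraries left out.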

Additional observations from a re-analysis of the deposited data

How the results depend on the processing

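The 20 most abundant genes were 20 or 19 of the same 20 under each scaling, filter and omission of libraries that was run. Of the 20 most variable genes, 11 remained with no low-count filter, 10 without uteri 15 and 17, 12 without uterus 17 and 12 to 20 when single uteri were left out. The first principal component held 27.4% of variance with no filter, 30.4% without uteri 15 and 17, 41.3% without 45 and 53, 37.4% without 15 and 16 (a choice made after seeing the data) and 31.0% to 39.4% with single uteri left out. The number of list pairs past an adjusted p of 0.05 was 0, and 0 to 2 with single uteri left out: 1 without uterus 17 and 2 without uterus 69. Genes called between culture sets numbered 0 by edgeR, 2 by edgeR with no filter, 0 by limma-voom and 875 by the DESeq2 likelihood ratio test; the cause was not tested. Genes with an unadjusted p under 0.05 (edgeR 1213) numbered 712 to 1637 with single uteri left out, the lowest without uteri 39 and 19 (712 and 713), and 2501 by DESeq2. Without uterus 14 the relation of leukocytes to interferon-stimulated genes was r = 0.59. No paired analysis was possible because the 13 libraries form 1 group and each uterus gave 1 library. Ranking by CPM per kb was not run, since no gene lengths of the build used were at hand. Genes near the filter (about 10 counts) are limited by counting noise.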

Other observations

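Further lists were compared over 136 pairs of 17 lists. Leukocyte and heat shock levels were inversely related across uteri (r = -0.81, rho = -0.87), with a permutation p of 0.00056 and 0.0462 after Benjamini-Hochberg adjustment, and r was also -0.81 without uteri 69 and 53. Within culture sets r was -0.55, with an exact p of 0.375 over 64 arrangements. Both lists moved in the same direction, against the sign of r, in 3 of 6 sets. Endothelium and cell cycle had r = -0.77 (permutation p = 0.00089, adjusted 0.0462), and -0.52 without uteri 15 and 16. Within culture sets its r was -0.755 (exact p = 0.469), and both lists moved in the same direction, against the sign of r, in 3 of 6 sets. Cilia and immediate early genes had r = -0.82 (permutation p = 0.00102, adjusted 0.0462), and -0.44 without uteri 15 and 17. Within culture sets its r was -0.898 (exact p = 0.344), and both lists moved in the same direction, against the sign of r, in 2 of 6 sets. By rank correlation, none of the 136 pairs passed, and the smallest adjusted permutation p was 0.0517.

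Secreted factors of stroma and glands went their own ways between uteri. The 33 secretory genes that passed had a median r of 0.08 with each other, and 31 varied more than the median gene. LTF, lactoferrin, was 2.66 CPM in uterus 16 and 279 CPM in uterus 45, WFDC2, an epithelial protease inhibitor, 4.87 CPM in uterus 39 and 358 CPM in 45, and SPP1, osteopontin, 7.50 CPM in uterus 16 and 263 CPM in 69. IGF1 was 1.81 CPM in uterus 70 and 73.1 CPM in 15. PLIN2, which coats lipid droplets, was steady at 393 to 638 CPM. LCN2, the neutrophil and epithelial lipocalin, was below the filter, with 12.1 CPM in uterus 69, 5.37 CPM in 45 and a median of 0.327 CPM.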
